A study of Mus musculus with 8 samples.

Results

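Of the 105081 DRIP-seq peaks called in Cre DOX cells, 48564 overlapped no peak of the other 3 conditions by 1 bp or more, and these Cre DOX only peaks are described here. They made up 46.2% of the Cre DOX list and 14.1% of the 344010 peaks called over the 4 conditions. The remaining 56517 Cre DOX peaks overlapped a peak of at least 1 other list and are called shared. The rule used the positions of the peaks in all 4 lists, so the presence of the members in Cre DOX and their absence elsewhere is the selection itself and no finding.

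The cells were Rtel1F/F;WT RNH1-GFP MEFs, mouse embryonic fibroblasts in which both Rtel1 alleles are floxed and doxycycline switches on WT RNaseH1-GFP. They received GFP adenovirus, which leaves Rtel1 intact, or Cre-GFP adenovirus, whose recombinase deletes it, and after 48 h they were given doxycycline at 2 µg/ml (DOX) or none (mock) and collected after another 48 h. Cre DOX cells thus carry the Rtel1 deletion and overexpress RNaseH1, Cre mock cells carry the deletion alone, GFP DOX cells overexpress RNaseH1 alone, and GFP mock cells have neither. All 4 conditions share the floxed alleles, the transgene and an adenoviral infection, and no group lacks them. RNA:DNA hybrids of each condition were pulled down in 3 parallel immunoprecipitations that were pooled into 1 library, so there is no replicate, no test between conditions can be made, and all differences given here are between these 4 libraries. The deposited lists hold peaks and no reads, so the depth of the libraries is unknown here, and a position without a peak in a list may still have carried signal below the caller's threshold.

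R-loops are three-stranded structures in which an RNA pairs with one DNA strand and displaces the other. They form during transcription, preferentially at GC-rich promoters and gene ends, and DRIP recovers them with S9.6, an antibody that binds RNA:DNA hybrids. RNaseH1 degrades the RNA of such hybrids, and RTEL1 is a helicase that unwinds DNA secondary structures such as telomeric T-loops and G-quadruplexes (G4-DNA).

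To show what sequence the Cre DOX only peaks carried, 1 peak of at most 300 bp is given for each of 4 chosen classes (GRCm38, plus strand). The mostly repeat-masked intergenic member with the highest score among peaks of that width lay on chr17:38896545-38896762, and its capitals mark words of 31 bases that 100 or more members share, 171 of its 218 bases. The highest-scoring one with a predicted G4 lay on chr10:121763229-121763441 in intergenic sequence, and its capitals mark the windows that reach the G4 threshold, which include a long run of C on the plus strand. The highest-scoring one in a promoter lay on chr17:46246077-46246372 in Polr1c, which encodes a subunit shared by RNA polymerases I and III, and its capitals mark bases of a coding exon. The mostly unmasked intergenic member lay on chr6:47679967-47680188, with the unmasked bases in capitals.
masked intergenic member, chr17:38896545-38896762: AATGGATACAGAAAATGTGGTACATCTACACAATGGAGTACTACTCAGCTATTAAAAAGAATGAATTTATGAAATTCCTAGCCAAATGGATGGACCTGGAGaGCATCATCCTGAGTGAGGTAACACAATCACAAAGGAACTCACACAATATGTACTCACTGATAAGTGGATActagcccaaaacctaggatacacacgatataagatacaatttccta
member with a predicted G4, chr10:121763229-121763441: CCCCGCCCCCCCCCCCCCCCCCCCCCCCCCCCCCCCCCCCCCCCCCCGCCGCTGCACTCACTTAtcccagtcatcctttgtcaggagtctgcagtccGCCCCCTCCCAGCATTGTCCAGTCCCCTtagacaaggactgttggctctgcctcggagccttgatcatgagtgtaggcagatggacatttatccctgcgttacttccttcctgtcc
member in Polr1c, chr17:46246077-46246372: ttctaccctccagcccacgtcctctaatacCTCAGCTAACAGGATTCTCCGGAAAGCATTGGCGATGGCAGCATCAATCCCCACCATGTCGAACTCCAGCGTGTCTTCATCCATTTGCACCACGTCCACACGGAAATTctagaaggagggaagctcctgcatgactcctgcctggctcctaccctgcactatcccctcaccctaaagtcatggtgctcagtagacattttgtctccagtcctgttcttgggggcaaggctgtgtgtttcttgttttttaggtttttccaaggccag
unmasked intergenic member, chr6:47679967-47680188: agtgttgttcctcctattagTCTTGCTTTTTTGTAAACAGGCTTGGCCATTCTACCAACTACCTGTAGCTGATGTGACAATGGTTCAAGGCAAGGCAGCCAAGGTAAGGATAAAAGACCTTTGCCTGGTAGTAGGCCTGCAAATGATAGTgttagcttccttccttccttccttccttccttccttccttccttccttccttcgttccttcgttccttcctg

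Many Cre DOX only peaks lay close to peaks of the other lists. The gap between a member and the nearest peak of any other list had a median of 2527 bp, with quartiles of 742 and 9321 bp, and 31.03% of the members had such a peak within 1 kb. At the edge of the rule, 37 members abutted a peak of another list with a gap of 0 bp and 317 lay within 10 bp of one, while 37 shared peaks overlapped another list by a single base pair and 339 by 10 bp or less. The member farthest from any peak of the other conditions was on the Y chromosome (chrY:14134325-14134546), 3425783 bp from the nearest. Among the shared peaks, 17126 (16.3% of all Cre DOX peaks) overlapped all 3 other lists, 9989 overlapped GFP mock alone, 9144 Cre mock alone and 5084 GFP DOX alone. The number of peaks found in a single list was 34620 for Cre mock, 33107 for GFP mock and 13157 for GFP DOX, which is 38.0%, 37.8% and 21.8% of their lists.

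Cre DOX only peaks were narrow. Their median width was 363 bp (quartiles 224 and 561 bp) against 766 bp for shared Cre DOX peaks, and together they covered 22.1 Mb, which was 24.9% of the length of the Cre DOX list and 0.836% of the genome outside gaps. The narrowest peak of the Cre DOX list was 213 bp wide, and 10843 members (22.3%) had exactly that width, against 5.51% of the shared peaks. Widths cannot be set directly against the other lists, whose narrowest peaks were 132 bp (Cre mock), 107 bp (GFP DOX) and 106 bp (GFP mock) and whose own-only peaks had medians of 234, 215 and 199 bp. The share of Cre DOX peaks that were members fell with width. It was 71.1% of the peaks of 300 bp or less, 56.6% of those above 300 and up to 600 bp, 35.3% above 600 and up to 1200 bp, 12.2% above 1200 and up to 2400 bp and 0.894% above 2400 bp, where 64 members remained. A wider peak has more bases at which to meet another list, so this gradient is in part set by the rule.

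**Figure D1:**
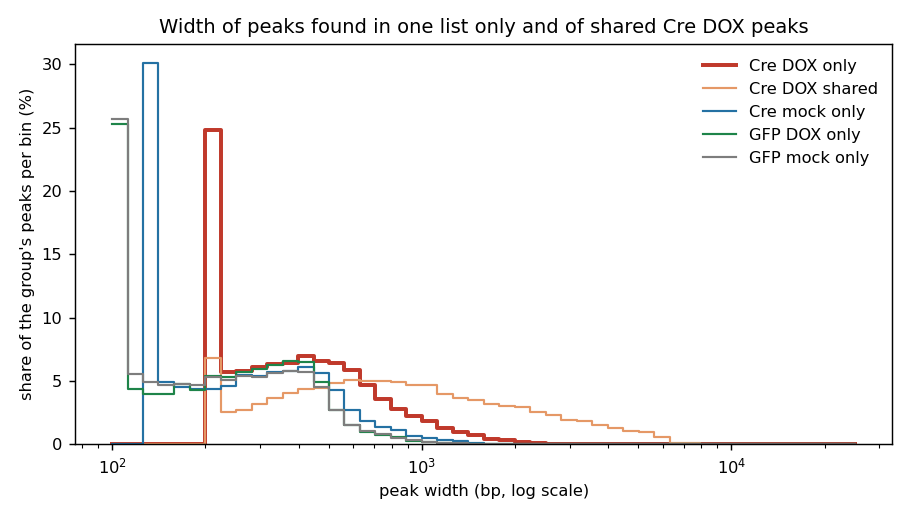
Share of each group's peaks (vertical axis, % per bin) by peak width (horizontal axis, bp on a log scale) for peaks found in a single list and for shared Cre DOX peaks. Each own-only group has a spike at the narrowest width of its list, 213 bp for Cre DOX, and the shared Cre DOX peaks extend to greater widths.

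The widest members were long stretches of repeat-masked sequence. The widest, 4499 bp on chr2:22306211-22310709, lay in an intron of Myo3a, which encodes an unconventional myosin of sensory cells, and was 96.95% masked. The next 4 were intergenic, between 3497 and 4396 bp wide and between 84.4% and 97.5% masked, with the nearest protein-coding genes (Amy2a5, Ins1, Kap and Kcnv1) between 33920 and 637817 bp away. All 64 members above 2400 bp were mostly masked. The scores of the 5 widest ran from 20 to 22, where the score is 10 times the −log10 q-value of the peak. Over all members the median score was 16 and the upper quartile 20.

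Members were also weaker peaks. Their median score was 16 and their median fold enrichment 2.98, against 21 and 3.26 for shared Cre DOX peaks. Where signal is weak, another list can lack a peak because its signal stayed below the caller's threshold. The difference in score may thus be in part set by the rule. Of the Cre DOX peaks with a score below 20, 58.1% were members, of those in the top decile (a score of 31 or more) 18.7%, and of the 1524 with a score of 50 or more 8.79%. The 5 highest-scoring members had scores of 152, 144, 132, 130 and 130. All 5 were intergenic, 4 of them were 100% masked, and they lay between 10350 bp (BC048403) and 1177072 bp (Zeb2, a transcriptional repressor) from the nearest protein-coding gene. The first of them, on chr3:22656606-22656922, was 317 bp wide with a fold enrichment of 5.36, and the nearest peaks were 10867 bp away in Cre mock, 4793 bp in GFP DOX and 10265 bp in GFP mock. Among the members in the top decile of scores 67.4% were intergenic and 88.1% mostly masked.

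By position, the members were mainly intergenic. A peak was assigned to a promoter if it came within 1 kb of a start site of any annotated transcript, otherwise to an exon, an intron or intergenic sequence. Intergenic peaks numbered 29189 of 48564, or 60.1% (95% exact binomial interval 59.7 to 60.5%), introns held 14337 (29.5%), promoters 3371 (6.94%, 6.72 to 7.17%) and exons 1667 (3.43%). The intervals cover counting error only, and neighbouring peaks are not independent of each other. In the genome outside gaps, 52.4% of the bases were intergenic, 38.3% intronic, 6.05% in promoters and 3.18% exonic. A peak counts for a promoter if any of its bases lies there, so these shares are not of like kind, and of the members' own bases 5.24% lay in promoters, with 5.90% of the members having their midpoint there. Of the shared Cre DOX peaks 59.1% were intergenic and 12.7% in promoters.

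The peaks found in a single list of the other conditions differed in position. Such peaks by definition overlap no Cre DOX peak, and the shared Cre DOX peaks were 59.1% intergenic and 75.9% mostly masked. Peaks of the other lists at those places are thus left out of their own-only groups. Differences from own-only peaks, here and below, are therefore in part set by the rule, and the shares of whole lists are not given. Of the Cre mock only peaks 33.5% were intergenic, 39.0% intronic and 16.5% in promoters. The intergenic share was 37.9% for GFP DOX only and 48.7% for GFP mock only peaks, with 17.0% and 11.4% in promoters. Among peaks from 213 to 600 bp wide the intergenic share was 58.3% for Cre DOX only and 31.2%, 36.1% and 47.7% for the own-only peaks of Cre mock, GFP DOX and GFP mock. The median distance from a member to the nearest start site of a protein-coding gene was 51617.5 bp, against 12307.5 bp for Cre mock only, 12983 bp for GFP DOX only and 24505 bp for GFP mock only peaks. For 39.1% of the members it exceeded 100 kb.

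**Figure D2:**
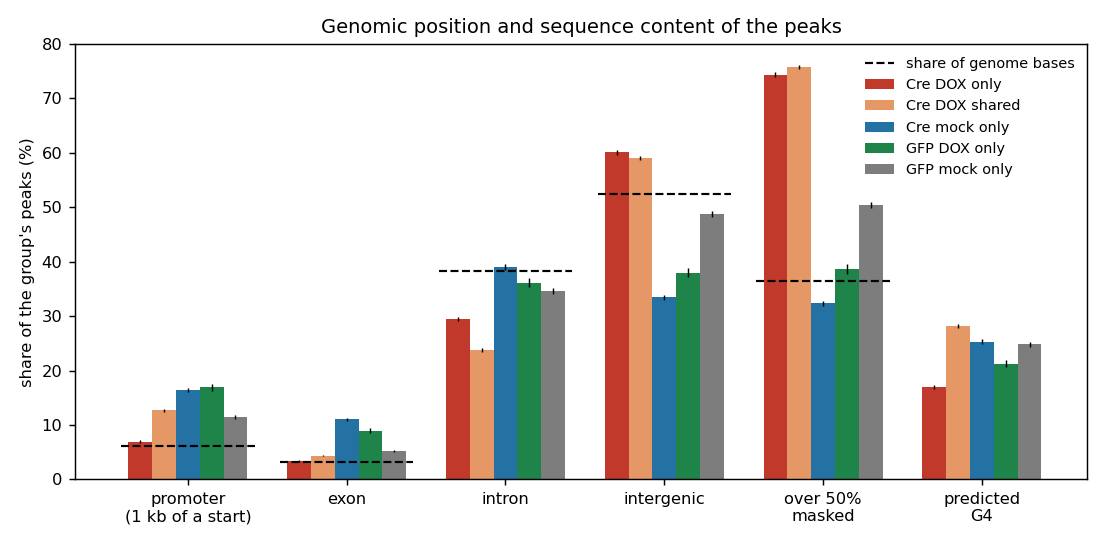
Share of each group's peaks (vertical axis, %) in promoters, exons, introns and intergenic sequence, over 50% repeat-masked, and holding a predicted G4. Error bars are 95% exact binomial intervals for counting error, and dashed lines give the share of genome bases in that class, where masked bases stand at 36.4%. Cre DOX only and shared Cre DOX peaks stand together in the intergenic and masked classes, above the own-only peaks of the other 3 lists.

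Most members lay in repeats. In 36134 of them (74.4%, 95% exact interval 74.0 to 74.8%) over 50% of the bases were repeat-masked in the reference, and 15079 (31.05%) were masked from end to end. Over all their bases 77.2% were masked, against 36.4% of the genome. Shared Cre DOX peaks were mostly masked in 75.9%, whereas the own-only peaks were in 32.4% (Cre mock), 38.7% (GFP DOX) and 50.4% (GFP mock). Masking and position went together, and of the 12430 members that were at most 50% masked, 30.8% were intergenic and 19.6% in promoters. Among shared Cre DOX peaks with at most 50% masked, 43.9% were in promoters.

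Part of the members held sequence that recurs in many of them. To see which sequences recurred, all words of 31 bases in the members were counted on both strands, words of short tandem repeats included. Although 92.9% of the distinct words occurred in 1 member, 28194 members (58.1%) held a word that occurred in 100 or more members. The words were chosen from the members, so the same count in other groups describes how far those groups hold the members' sequences. It was 69.4% for shared Cre DOX peaks, and 16.8%, 23.1% and 23.1% for the own-only peaks of Cre mock, GFP DOX and GFP mock. Members on the X chromosome held such a word in 71.6%, those on autosomes in 56.6%, and those in promoters in 23.1%. For the choice of examples alone, words that repeat themselves with a period of up to 6 bases were left out. The 5 words that in turn were found in the most members not yet holding an earlier one are shown here as examples of recurring sequence, and the fourth lies within the chr17 sequence given above.
word 1: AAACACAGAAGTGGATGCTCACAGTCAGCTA
word 2: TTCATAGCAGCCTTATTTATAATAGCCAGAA
word 3: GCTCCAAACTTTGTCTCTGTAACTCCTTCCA
word 4: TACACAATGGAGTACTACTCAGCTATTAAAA
word 5: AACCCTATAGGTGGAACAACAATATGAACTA

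Each of these words had between 17864 and 31983 exact copies on both strands of the assembled chromosomes. Word 1 lay in 1305 members on 20 chromosomes, 74.5% of them intergenic, which used 4.13% of its 31579 genome copies. Words 2 to 5 lay in 1302, 1219, 1271 and 922 members, and 4648 members (9.57%) held at least 1 of the 5. Of the wider shared Cre DOX peaks 3.39% held word 1 and 5.22% word 2, against 2.69% and 2.68% of the members. Per Mb of peak the order turned, with 59.0 copies of word 1 in the members and 28.9 in shared peaks, and 58.8 and 44.5 copies of word 2, and words 3 to 5 were likewise more frequent per Mb in the members. The narrower own-only peaks of the other lists held each word in at most 0.791%. Counted as peaks with the word per Mb of peak, word 1 was in 59.0 members, 28.6 shared Cre DOX, 9.22 Cre mock only, 10.6 GFP DOX only and 29.9 GFP mock only peaks, and word 5 in 41.7, 23.7, 9.12, 8.56 and 31.7 in the same order. The 5 words were picked for being held by many members, so these comparisons between groups favour the members by the choice. A read that falls within a sequence with so many exact copies can be placed at many sites, and how such reads were treated before peak calling is not given in the sources used here, so the placement of these members among the copies is uncertain. The part of read placement in the result was not tested.

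Base composition differed from that of other own-only peaks. The median GC content of the members was 42.1%, next to 41.1% for shared Cre DOX peaks and 41.7% of all genome bases, whereas it was 47.7%, 47.5% and 48.3% for Cre mock only, GFP DOX only and GFP mock only peaks. A GC content above 55% was found in 3.86% of the members and in 8.66% of shared Cre DOX peaks. A G4 was predicted where a window of 25 bases reached a G4Hunter score of 1.5, a measure of runs of G or of C. It was found in 8230 members (16.9%, 95% exact interval 16.6 to 17.3%), against 28.2% of shared Cre DOX peaks, 25.3% of Cre mock only, 21.3% of GFP DOX only and 24.8% of GFP mock only peaks. Shared peaks are wider and so have more windows, but within the classes of 300 bp or less and above 300 and up to 600 bp the members also had fewer, with 13.5% against 20.8% and 18.6% against 27.4%. The other own-only peaks are narrower. Among peaks from 213 to 600 bp wide a G4 was predicted in 16.0% of the members, against 30.7%, 27.7% and 32.4% of the own-only peaks of Cre mock, GFP DOX and GFP mock. The telomeric repeat TTAGGG in 3 or more units was in 6 members and in 66 shared Cre DOX peaks. A match to such letters is a description and no evidence of a folded structure.

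DRIP was made on DNA cut with EcoRI, HindIII, BsrGI, SspI and XbaI, so a piece pulled down by the antibody reaches from 1 site to the next. The recovered DNA was then sheared by sonication before the libraries were made, so the sequenced pieces need not end at sites. The members held 1.33 sites per kb, the shared Cre DOX peaks 1.51 and the own-only peaks between 0.662 (Cre mock) and 0.766 (GFP DOX), against 1.87 per kb of genome. No site lay in 62.5% of the members. The fragment at the midpoint of a member had a median length of 1238 bp. It was 1183 bp for shared Cre DOX peaks and 1792, 1791 and 1523 bp for the own-only peaks of Cre mock, GFP DOX and GFP mock. Weighted by bases, the median fragment of the genome was 945 bp.

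Members were found on all chromosomes except the mitochondrial genome. The autosomes carried 43927 of them at 18.3 per Mb outside gaps, from 14.9 per Mb on chromosome 12 to 22.0 per Mb on chromosome 17. The X chromosome carried 4634 at 28.3 per Mb, above every autosome, and 90.7% of these were mostly masked. The Y chromosome had 3 members among 20 Cre DOX peaks. Among the autosomes and X, shared Cre DOX peaks varied between 9.66 per Mb on chromosome 12 and 37.6 on X, and the share of Cre DOX peaks that were members ran from 32.8% on chromosome 15 (95% exact interval 31.5 to 34.1%), 36.7% on chromosome 3 and 37.0% on chromosome 19 to 56.5% on chromosome 7 and 60.7% on chromosome 12 (58.9 to 62.5%). The X chromosome, at 43.0%, lay below the 46.2% of the whole list, and its shared peaks were dense as well. The own-only peaks of the other lists were not dense on X, with 7.03 per Mb for Cre mock, 3.22 for GFP DOX and 10.6 for GFP mock. These densities leave out every peak that overlaps a Cre DOX peak. Each of the shared Cre DOX peaks, at 37.6 per Mb on X, overlaps a peak of at least 1 other list. The own-only values thus do not show that the other lists were sparse on X.

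**Figure D3:**
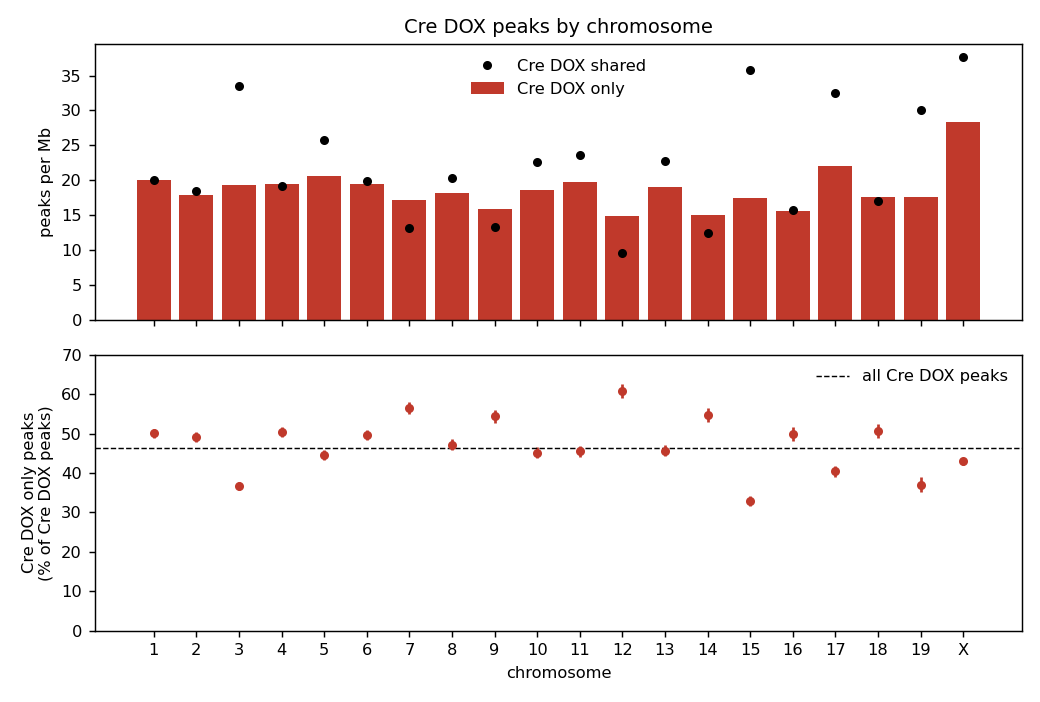
Upper panel, Cre DOX only peaks (bars) and shared Cre DOX peaks (points) per Mb outside gaps for each chromosome. Lower panel, Cre DOX only peaks as a share of all Cre DOX peaks (%), with 95% exact binomial intervals and the 46.2% of the whole list as a dashed line, from 32.8% on chromosome 15 to 60.7% on chromosome 12 among the autosomes and X, which are the chromosomes shown.

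At the ends of the chromosomes, the first 5 Mb next to the centromeric gap held 4.52% of the members (95% exact interval 4.33 to 4.71%) and the last 5 Mb 3.81% (3.64 to 3.98%), where such a region of the 20 chromosomes holds 3.91% of the bases. Shared Cre DOX peaks had 5.82% next to the centromeric gap and 4.11% in the distal region. The own-only peaks of Cre mock, GFP DOX and GFP mock had 3.92%, 4.19% and 3.86% next to the centromeric gap, and 5.37%, 5.54% and 4.87% in the distal region.

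In windows of 1 Mb the members were spread broadly. Over 2530 windows the mean was 18.9 and the median 17, 4 windows had none, and the densest 10% of windows held 21.2% of the members, against 26.9% for shared Cre DOX peaks and 32.3%, 35.03% and 25.3% for the own-only peaks of Cre mock, GFP DOX and GFP mock. The number of members per window was related to the share of masked bases (Spearman's rho 0.62 over 2530 windows) and to the number of shared Cre DOX peaks (0.75), and inversely to GC content (−0.23), and it had little relation to the number of protein-coding start sites (0.06). For Cre mock only peaks the same coefficients were −0.39 with masking, 0.73 with GC content and 0.66 with protein-coding start sites. Windows of 1 library share its depth and neighbouring windows resemble each other, so these values are descriptions. In 5 equal classes of windows by GC content there were 24.4 members per window in the lowest class, 14.4 in the class next to the highest and 18.9 in the highest.

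**Figure D4:**
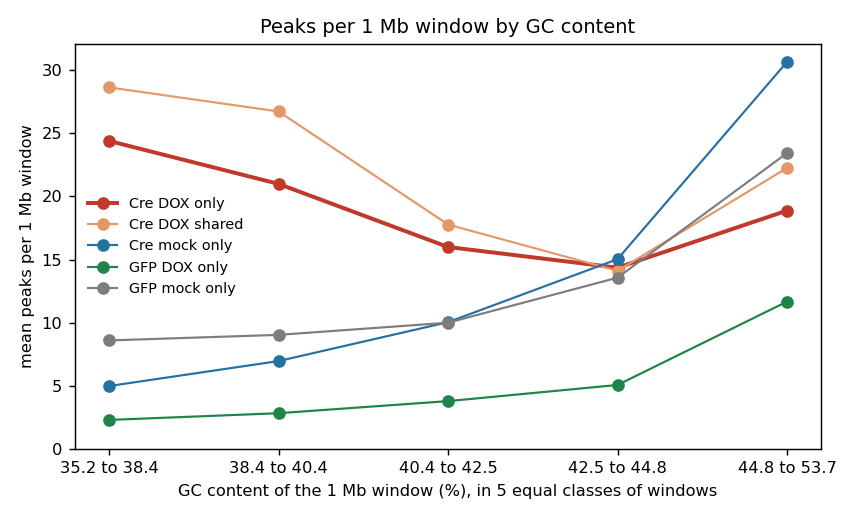
Mean number of peaks per 1 Mb window (vertical axis) in 5 equal classes of windows by GC content (horizontal axis, %). Cre DOX only and shared Cre DOX peaks are most frequent in the windows of lowest GC content, 24.4 and 28.6 per window, while the own-only peaks of the other 3 lists rise with GC content.

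The densest windows ranged from gene-rich to gene-free. The window on chrX:8000001-9000000 had 73 members next to 71 shared Cre DOX peaks, and it carries 26 protein-coding genes, among them Was (an actin regulator of blood cells), Suv39h1 (a histone H3 methyltransferase) and a series of Ssxb genes. The window on chr7:5000001-6000000 had 72 members and 25 protein-coding genes, with vomeronasal receptors of the Vmn1r family and zinc finger genes such as Zfp784. The windows on chr3:3000001-4000000 and chrX:45000001-46000000 had 62 members each and 1 protein-coding gene each, Hnf4g and Prr32, and that on chrX:80000001-81000000 had 60 members and none. In these 5 windows between 46.5% and 60.2% of the bases were masked.

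Along the chromosomes the members stood 54.5 kb apart on average, counting the genome outside gaps. The nearest other member lay at a median of 10046 bp, 23.0% of the members had one within 2 kb, and 42299 (87.1%, 95% exact interval 86.8 to 87.4%) had one within 50 kb. The same share was 91.5% for the more numerous shared Cre DOX peaks, 80.3% for Cre mock only, 77.0% for GFP mock only and 57.8% for the fewer GFP DOX only peaks. These shares were not matched for the number of peaks, whose mean spacing was 46.8, 76.5, 79.97 and 201.2 kb in the same order, and a link of 50 kb is close to the mean spacing of the members. When members within 50 kb were chained they gave 15699 units, of which 6265 were single peaks, and 2989 clusters of 5 or more held 25159 members (51.8%). In the order of all Cre DOX peaks, the peak after a member was a member in 52.5% of cases, and the peak after a shared one was a member in 40.9%. The longest unbroken run was of 17 members over 129 kb on chr7:47951723-48080400, a region with Mrgpra4 and Mrgprx1, receptors of sensory neurons.

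The largest cluster had 62 members over 684 kb on chr1:117554213-118238240. All of its members were mostly masked, their median score was 16, and the interval also held 60 shared Cre DOX peaks and 67 Cre mock, 59 GFP DOX and 64 GFP mock peaks, so the region was rich in peaks of every list. Its 6 protein-coding genes were B020011L13Rik and predicted models such as Gm28363 and Gm7145. The next clusters were of 57 members over 534 kb on chrX:8280802-8814641, which holds Gm14459 and genes of the Ssx and Ssxb families, 10 in all, and of 52 members over 620 kb on chrX:77677457-78297826, with Prkx, Pbsn (probasin, an androgen-regulated secreted protein) and the odorant-binding protein genes Obp1a and Obp1b. In the Ssxb cluster 56.1% of the members were mostly masked, and in the Obp cluster 92.3%.

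Among the 21951 protein-coding genes, 7620 (34.7%) held a member in the gene body. In 3173 of these no shared Cre DOX peak overlapped the body, and in 718 there was no other peak of any of the 4 lists. Whether a gene held a member followed its length, from 10.1% of genes below 10 kb and 36.3% from 10 to 50 kb to 79.7% from 100 to 500 kb and 96.96% of those of 500 kb or more. The density ran the other way, from 23.9 members per Mb of gene body below 10 kb to 11.2 in genes of 500 kb or more, against 15.3 over all protein-coding genes. Shared Cre DOX peaks declined more steeply over the same classes, from 64.5 to 11.7 per Mb.

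The 10 genes with the most members were longer than 500 kb, apart from Gucy1a2, which ranked between Dmd and Sntg1 with 36 members in 362 kb. Gm20388, a predicted gene model of 4435 kb on chromosome 8 that spans many other genes, held 85 members. Nkain2, which encodes a protein that interacts with the sodium pump, held 53 members and 59 shared Cre DOX peaks in 1201 kb (chr10:31689310-32890462), next to 61 peaks in Cre mock, 42 in GFP DOX and 59 in GFP mock. Dmd, the gene of dystrophin, held 42 members and 42 shared peaks in 2257 kb, and Sntg1, a syntrophin of the same membrane complex family, held 33 and 48. Naaladl2 had 30 and Cntn5, a neuronal adhesion protein, 28. The models Gm37013, Gm37388 and Gm42416 on chromosome 18 overlap each other and counted the same region with 30 members each. In Dmd the other lists had 39 (Cre mock), 27 (GFP DOX) and 50 (GFP mock) peaks, and in Sntg1 51, 39 and 58, so both genes also held peaks of every other list.

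Among genes of at least 100 kb, Adgre1, the gene of the macrophage antigen F4/80, had the highest density, 11.2 per 100 kb from 14 members. Gucy1a2, a subunit of the nitric oxide receptor guanylate cyclase, came next. It held 36 members in 362 kb (chr9:3532778-3894736), 9.95 per 100 kb, with 24 shared Cre DOX peaks, 25 peaks in Cre mock, 16 in GFP DOX and 19 in GFP mock. Map4k4, a kinase of stress signalling, had 11 members in 125 kb and 1 shared Cre DOX peak, with 14 peaks in Cre mock, 4 in GFP DOX and 5 in GFP mock at other positions of the gene. Serpinb3b, a protease inhibitor, and Myo18a, an unconventional myosin, followed with 10 and 8 members.

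The promoters of 2267 protein-coding genes (10.3%) held a member, and in 1542 of them no shared Cre DOX peak overlapped the same promoters. The highest-scoring promoter members were modest beside the intergenic ones, with scores of 58 in Polr1c, 55 in Gria1 (an AMPA glutamate receptor subunit), 54 in Eif3e (a translation initiation factor subunit) and 46 at Hsbp1 (a negative regulator of heat shock factor). The next were Gadd45b, a stress-induced gene, and Flvcr2, a membrane transporter, with 44 each, 1700030K09Rik and H1fx, a linker histone, with 43 each, and Ncoa2, a nuclear receptor coactivator, and Kcng1, a potassium channel subunit, with 42 each. Many of these lay beside peaks of the other conditions. The Polr1c member was 437 bp from a Cre mock peak and 1544 bp from a GFP DOX peak, the Eif3e member 104 bp from a Cre mock peak, and the H1fx member 39, 184 and 294 bp from peaks of Cre mock, GFP DOX and GFP mock. The Flvcr2 member (chr12:85746510-85747301, 792 bp, unmasked) stood apart, with the nearest peaks at 14417, 27819 and 19516 bp in the same order, and the Hsbp1 member was 4039, 12934 and 23758 bp away.

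Gene lists were read against the 34.7% of all protein-coding genes with a member in the body, and against density, since the share depends on length. All 31 genes found of a list of 33 orthologues of genes at human common fragile sites held a member (95% exact interval 88.8 to 100%), and so did 223 of 230 genes of 500 kb or more. Their densities of 11.9 and 11.2 per Mb of gene body were below the 15.3 of all protein-coding genes. In the fragile site list Dmd (42 members), Naaladl2 (30), Ctnna3 (28) and Cntnap2 (26) had the most, and Ctnna3, an alpha-catenin, held 28 members next to 14 shared Cre DOX peaks, 14 peaks in Cre mock, 13 in GFP DOX and 20 in GFP mock.

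The list of R-loop and G4 processing genes also included Bcl6, a DRIP-qPCR locus of the study, whose 1 promoter member is counted here. The list had a member in 19 of 31 genes (61.3%, 95% exact interval 42.2 to 78.2%), with 23.0 members per Mb of body. These genes had a median length of 37.6 kb, against 17.4 kb for all protein-coding genes, and protein-coding genes from 10 to 50 kb had 22.0 members per Mb. A promoter member was found in 10 of the 31 (32.3%, 95% exact interval 16.7 to 51.4%), against 10.3% of all protein-coding genes, and in the other lists the share ran from 3.70% of odorant receptor genes to 23.5% of ribosomal protein genes. For the fibroblast and p53 lists it was 21.2% (8.98 to 38.9%) and 20.0% (6.83 to 40.7%), intervals that include the share of all protein-coding genes. Brip1, the FANCJ helicase, held 4 members and no shared Cre DOX peak, with 1 peak in Cre mock, none in GFP DOX and 2 in GFP mock. Ddx21, a nucleolar RNA helicase, held 4 members and 3 shared peaks in 22.0 kb, and Atrx, a chromatin remodeller, held 3 members and no shared peak.

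Genes of fibroblast matrix and identity had members in 14 of 33 (42.4%). Fn1, the gene of fibronectin, held 6 members in 67.7 kb and 1 shared Cre DOX peak, against 7 peaks in Cre mock, 4 in GFP DOX and none in GFP mock, and Col5a1, a collagen chain, held 4 members and 3 shared peaks, against 32, 13 and 13 peaks in the same order. Loxl1, an enzyme of elastic fibre assembly, held 3 members and 2 shared peaks, and Pdgfra, a growth factor receptor of fibroblasts, 3 members and no shared peak. Of the p53 response genes 11 of 25 (44.0%) had a member, with 2 each in Bax, an activator of apoptosis, Ddb2, a DNA damage sensor, and Sesn2, a stress protein. The exact intervals of both lists (25.5 to 60.8% and 24.4 to 65.1%) include the share of all protein-coding genes.

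Large gene families differed among themselves. Odorant receptor genes had a member in 79 of 1135 (6.96%) at 12.3 per Mb of body, and vomeronasal receptor genes in 93 of 331 (28.1%) at 35.5 per Mb, next to 41.4 shared Cre DOX peaks per Mb. Vmn2r7 held 9 members and 7 shared Cre DOX peaks, with 11 peaks in Cre mock, 16 in GFP DOX and 13 in GFP mock. Vmn2r17, Vmn2r53 and Vmn2r60 held 6 members each, with 4, 1 and 4 shared Cre DOX peaks. Zinc finger protein genes had members in 134 of 394 (34.0%). In the lists of short genes shared peaks were denser than members, as they were in all protein-coding genes below 10 kb (64.5 against 23.9 per Mb). Cytosolic ribosomal protein genes held a member in 21 of 81 (25.9%), 24 in all or 67.2 per Mb, against 299.6 shared Cre DOX peaks per Mb, and replication-dependent histone genes in 4 of 67 (5.97%), at 36.0 members and 72.0 shared peaks per Mb. Members near copies within such families can share sequence, which makes their assignment to a single gene uncertain.

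**Figure D5:**
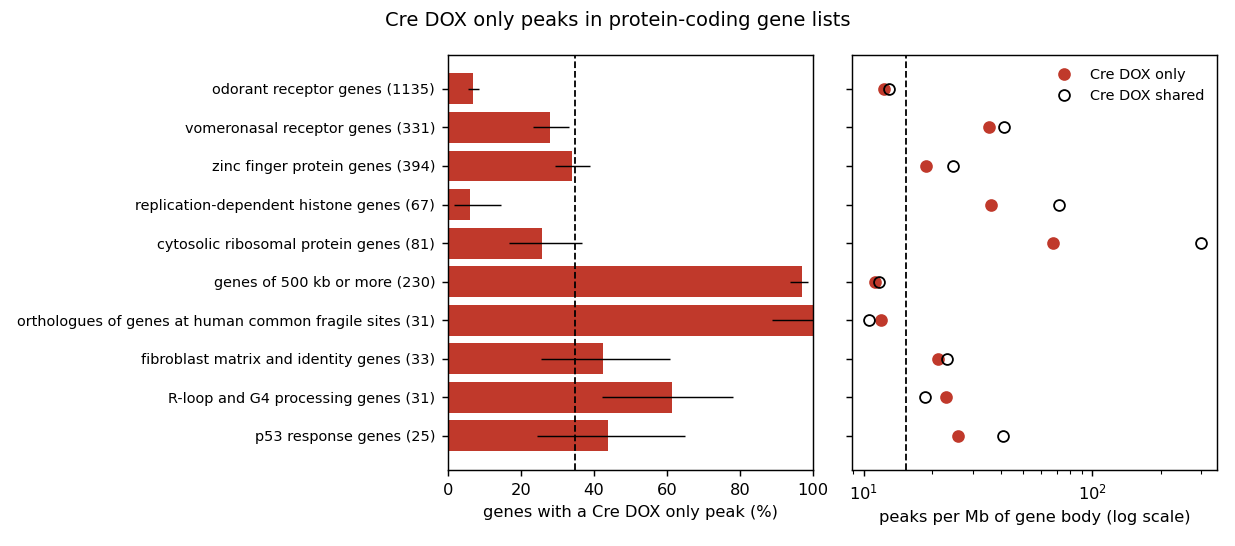
Left, share of the genes of each list with a Cre DOX only peak in the gene body (%, bars with 95% exact binomial intervals, number of genes in parentheses), with the 34.7% of all protein-coding genes as a dashed line. Right, Cre DOX only (filled) and shared Cre DOX peaks (open) per Mb of gene body on a log scale, with the 15.3 members per Mb of all protein-coding genes as a dashed line. The lists of long genes stand at 96.96% and 100% on the left and below the dashed line on the right.

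At the loci followed by the study, Rtel1 held 1 member, 441 bp on chr2:181349370-181349810 over a coding exon, with a score of 10 that is at the bottom of the list. No shared Cre DOX peak lay in Rtel1, Cre mock had 2 peaks there and GFP DOX and GFP mock had none, and peak calls do not show whether the gene was deleted. Bcl6, a transcriptional repressor, held 1 member of 930 bp on chr16:23987914-23988843, with a score of 14, a fold enrichment of 2.90, a GC content of 60.6% and a predicted G4, and no other list had a peak within 38982 bp. Actb, the gene of beta-actin, held a shared peak and no member, and the endogenous Rnaseh1 gene had no peak in any list. The induced transgene is of human RNaseH1, so the mouse locus gives no measure of it.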

How the data were processed

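DRIP-seq of 8 samples was considered, of which 4 immunoprecipitated libraries had peak lists and 4 inputs were not analysed here. Per the study's methods the authors ran the nf-core/chipseq pipeline on single-end reads, with alignment by BWA to mm10 and separate peak calling by MACS2 for every library. Broad-peak files were deposited although the stated command had the narrow option, and control use and the treatment of reads with several placements are not given in the sources used here. The deposited score is 10 times the −log10 q-value rounded down (in 99.9962% of peaks), the deposited signal is a fold enrichment, a ratio over local background, and the deposited −log10 p- and q-values are those of the caller. None is normalised between libraries. Broad calling joins nearby stretches, and the least width, which differed between lists, affects which peaks overlap.

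Overlap, gaps, clusters, restriction sites, masking and G4Hunter scores were computed in Python 3.11.15 (numpy 2.4.6, pandas 2.3.3, scipy 1.17.1, matplotlib 3.10.9) on GRCm38.p6 with GENCODE M21 genes, of which 21951 were protein-coding on the 22 assembled chromosomes. Repeat-masked bases are the lower-case bases of the RefSeq FASTA, which gives no family names. Only windows with at least 90% of bases outside gaps were used. With 1 library per condition no test was made, and exact binomial (Clopper-Pearson) intervals at 95% cover counting error only. The functions were tested on simulated data. Printed peaks and genes followed fixed rules: the 5 highest-scoring and 5 widest members, the 10 genes with the highest-scoring promoter member and with the most members, the 5 genes of at least 100 kb with the most per 100 kb, the 5 densest windows, the largest cluster, the study's loci and up to 4 genes per list, of which 1 is not reported here. The clusters after the largest, the longest run and the 5 words were added after their values were seen. The members and the lists were chosen with earlier results of these data known. Alternatives for the overlap, score, promoter, G4 and distance settings were tried.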

Additional observations from a re-analysis of the deposited data

Results flagged for a closer look

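In several measures doxycycline went with opposite differences under the 2 viruses, each from 1 library, and the difference between the viruses was not tested. The number of peaks found in a single list was 1.40 times as high in Cre DOX as in Cre mock and 0.397 times as high in GFP DOX as in GFP mock. These counts come from the selection itself, and the whole lists also held more peaks in Cre DOX (105081) than in Cre mock (91097) and fewer in GFP DOX (60219) than in GFP mock (87613). The share of these own-only peaks that was mostly masked was 42.03 points above mock under Cre and −11.7 points under GFP. The intergenic share differed by 26.6 points under Cre and −10.8 points under GFP, and the promoter share by −9.54 points under Cre and 5.55 points under GFP. These shares are of groups that the overlap rule formed, so they too are in part set by it.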

How the results depend on the processing

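Counting peaks within 1 kb of another list as shared left 33496 members with a median width of 352 bp, 5.72% in promoters, 61.4% intergenic, 75.8% mostly masked, 77.9% with another within 50 kb and 5658 genes. Requiring 50% coverage to call a peak shared gave 70395 members, 451 bp, 7.25% in promoters, 61.4% intergenic, 77.1% mostly masked, a G4 in 18.9%, 93.1% with a neighbour and 8920 genes. Counting the top-decile peaks of the other lists alone gave 94718 members, 10472 genes, 491 bp, 59.8% intergenic, 9.25% in promoters, 75.7% mostly masked, a G4 in 21.3% and 95.8% with a neighbour. Taking Cre DOX peaks in the top decile of scores gave 2114 members, 288 bp, 4.59% in promoters, 67.4% intergenic, 88.1% mostly masked, a G4 in 13.1%, 12.9% with a neighbour and 469 genes. With a −log10 q-value of 2 or more there were 13330 members, 310 bp, 5.42% in promoters, 64.7% intergenic, 82.9% mostly masked, a G4 in 14.2%, 53.3% with a neighbour and 2659 genes. Cutting every list to its 60000 strongest peaks left 24425 Cre DOX peaks without overlap. The promoter share was 4.34% for 500 bp, 11.7% for 2 kb, 5.90% by midpoint and 4.91% for protein-coding genes. The intergenic share was 60.6% by midpoint, 66.99% for protein-coding genes and 30.8% for members at most 50% masked. A G4 was predicted in 8.63% at a score of 2 and in 8.00% by a regular expression. A neighbour lay within 10 kb in 49.9% and within 100 kb in 96.3%, and 2267 genes had a member in a promoter. The intergenic and masked shares stayed above 59% and 74% in the settings of overlap, score and q-value in which they were computed, apart from the restriction to members at most 50% masked. The depth of the libraries is unknown and its part in the number of weak peaks was not tested, 72.6% of the members had a score below 20, and 1 library per condition gives no spread. No paired analysis was possible because each condition has 1 library.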
